A study of Mus musculus with 9 samples.

Results

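OVA peptide with citraconate was compared with OVA peptide alone in CD8+ T cells of the mouse, which recognise peptides on MHC class I and kill infected or malignant cells. The comparison took 6 of the 9 RNA-seq libraries of the study, chosen by their labels: 3 of cells treated with OVA peptide (OVA) and 3 of cells treated with OVA peptide and citraconate (the citraconate libraries). The other 3 libraries, of control cells without peptide, are quoted as a reference level and entered the fit through the shared estimate of the spread. No library had citraconate without peptide. The series title names stemness and antitumour immunity as its subject, and the design text asks how citraconate affects the transcripts of CD8+ T cells. No source used here gives strain, age, dose or time. In the labels the cells are named PAS-T cells, a term left undefined, except for citraconate replicate 1, which they call OVA-stimulated T cells. The labels do not say whether replicates came from separate animals or separate cultures. The p-values therefore set the difference between the groups against the spread among libraries of a group, control included, and that spread may be technical.

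OVA peptide, from egg white ovalbumin, serves as a model antigen. Citraconate, a dicarboxylic acid that is isomeric with itaconate, is known as an electrophile that activates the antioxidant factor NRF2 and as an inhibitor of the enzyme that makes itaconate. Stimulated CD8+ T cells move between a stem-like state, held by the transcription factor TCF-1 and marked by lymph node homing receptors, and an effector state with granzymes and perforin, the proteins that kill target cells.

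Transcript levels are in TPM, the transcripts of a gene per length and scaled to one fixed total per library. Values of the 3 libraries of a group follow the replicate numbers 1, 2 and 3, and a mean is given ± SD (n = 3). The 6 libraries held 14754470 to 17223927 reads assigned to genes, worked back from the deposited values. Libraries of the same group differed by a root mean square of 0.219 to 0.363 on the log2 scale and libraries of different groups by 0.555 to 0.883. Replicate 2 stood farthest from its partners in both groups, and among 6045 called genes citraconate replicate 2 was the library of its group nearest to the OVA levels for 60.6%. In the OVA group, replicate 3 was nearest to the citraconate levels for 62.7% of these genes. The T cell markers Cd3e and Trbc2 were abundant in all 6 libraries. The CD8 coreceptor genes were also present, with Cd8a at 147, 103 and 177 TPM with OVA and at 348, 280.4 and 347 TPM with citraconate. The defining B cell gene Ms4a1 and defining genes of macrophages (Lyz2, Adgre1, C1qa) were at or under 0.244 TPM in every one of the 6 libraries. Of the 16 myeloid and dendritic cell markers 4 passed the minimum level, Cd68 at 10.7 to 17.7, Cd14 at 3.18 to 9.73, Itgax at 3.44 to 6.44 and Xcr1 at 1.3 to 3.33 TPM. Xcr1 was called higher and Cd14 and Itgax lower. The higher call was lost with scaling by the median of ratios and without OVA replicate 1 or 2 or citraconate replicate 1 or 2, and 1 of the lower calls without OVA replicate 1 or citraconate replicate 2 or 3. The part of such cells in the results was not tested. Of the 12 B cell markers only the immunoglobulin genes Ighm and Igkc passed the minimum level. Ighm rose from 28.4 ± 3.53 to 74.4 ± 18 TPM, and Igkc, at 33.1, 56.9 and 36.1 TPM with OVA and at 0.939, 0.951 and 0.291 TPM with citraconate, fell. In bulk RNA a smaller number of cells of a type and less RNA per cell cannot be told apart.

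Of 11590 genes that averaged 1 TPM or more in either group, 7010 (60.5%) passed an adjusted p of 0.05 in limma, a linear model with a shared estimate of the spread. Higher levels with citraconate were found for 4469 genes (38.6%) and lower levels for 2541 (21.9%). The median gene stood 0.122 higher on the log2 scale with citraconate, so the split depends on scaling: with libraries scaled by the median of ratios, 3504 genes (30.2%) were higher and 3516 (30.3%) lower. All 3504 and all of the 2541 were called the same way in both scalings. Log2 changes below are of TPM + 1, citraconate minus OVA, relative to the median gene, and they understate the change of genes at low levels. By that measure 717 genes (6.19%) were at least 2-fold higher and 616 (5.31%) at least 2-fold lower in both scalings. Confidence intervals are shifted in the same way, but adjusted p-values and calls test the change before the 0.122 is taken off. Group values were free of overlap for 7782 genes (67.1%), of which 4901 (42.3% of those tested) were higher and 2881 (24.9%) lower. The naming rule for most genes below asked for this absence of overlap, so the separation of a named gene adds no support.

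**Figure D1:**
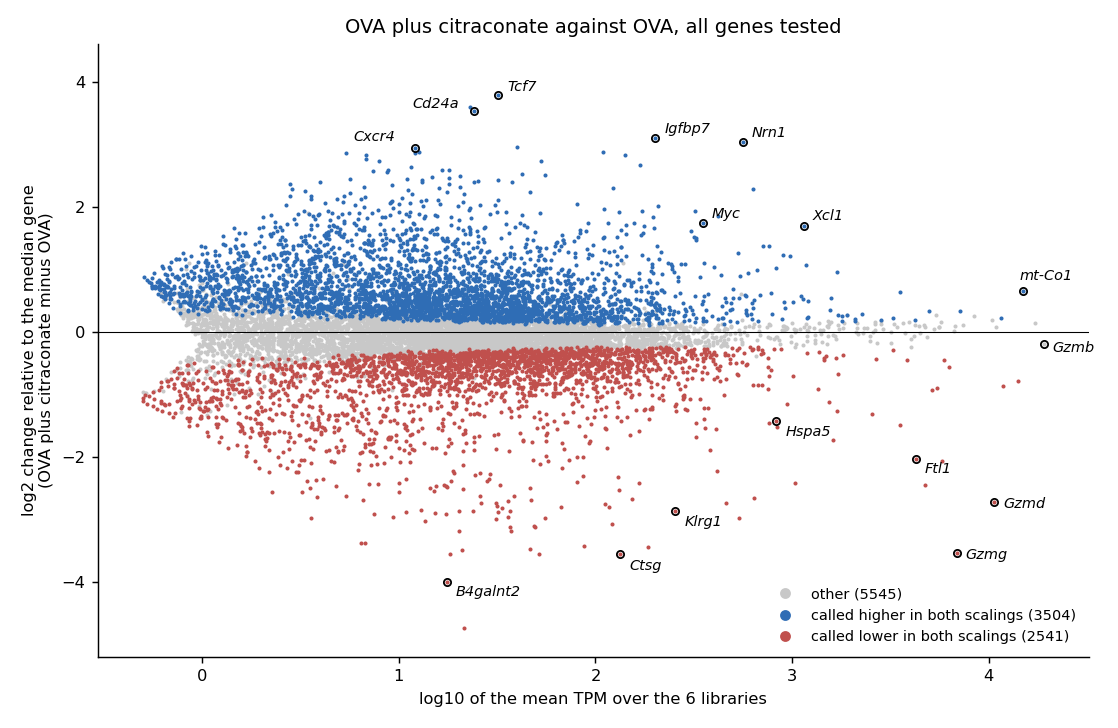
Log2 change relative to the median gene (vertical) against the log10 mean TPM over the 6 libraries (horizontal) for the 11590 genes tested. Blue points were called higher and red points lower in both scalings, grey points are all others, and circles mark named genes. Tcf7 is the highest named point at 3.79, while Gzmg and Gzmd are far below 0 at very high levels and Gzmb, at a like level, lies near 0.

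Factors and receptors of stem-like and memory T cells were mostly higher with citraconate. In this list 23 of 32 tested members rose, 4 fell and 5 were not called, and the median log2 change was 0.86. With scaling 22 and 5 were called. Among all genes tested 38.6% were higher and 21.9% lower, and 30.2% and 30.3% with scaling. The counts of every list below are to be read beside these shares. Tcf7, which encodes TCF-1, had the largest increase of the genes the naming rule allowed. It stood at 2.51, 1.37 and 5.84 TPM with OVA and at 75.2, 32.6 and 73.9 TPM with citraconate (log2 change 3.79, 95% confidence interval 2.88 to 4.7, adjusted p = 3.9e-05). The lowest citraconate library was far above the highest OVA library, and the control libraries held 61 ± 19.1 TPM. Id3, an inhibitor of E proteins that is kept in memory precursors, stood at 1.88, 0.959 and 3.63 TPM with OVA and at 27.9, 16.1 and 25.6 TPM with citraconate (log2 change 2.87, 95% confidence interval 2.23 to 3.51, adjusted p = 2.54e-05), again without overlap of the groups. Bach2, a repressor of effector genes, stood at 5.73, 3.16 and 8.81 TPM with OVA and at 27.2, 21.8 and 25.3 TPM with citraconate (log2 change 1.86, adjusted p = 9.31e-05) and was above the control level of 9.8 ± 0.591 TPM in all 3 citraconate libraries. Foxo1, a factor that drives homing and survival genes, rose from 10.8 ± 1.84 to 27.2 ± 1.91 TPM (log2 change 1.15). Klf2, the factor that keeps S1pr1 on, rose from 19.3 ± 0.812 to 70.5 ± 11.1 TPM (1.68), with control at 143 ± 14.8 TPM.

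Receptors for lymph node entry and exit in the same list rose as well. Ccr7, the receptor for lymph node chemokines, stood at 47.8, 20.1 and 63.8 TPM with OVA and at 205, 117 and 207 TPM with citraconate (log2 change 1.96, 95% confidence interval 1.1 to 2.82, adjusted p = 0.00107). The wide OVA group still lay below all 3 citraconate libraries, and control held 44 ± 13.5 TPM. S1pr1, the exit receptor of lymph nodes, rose from 1.53 ± 1.15 to 7.19 ± 3.02 TPM and remained far under the control level of 87.4 ± 7.04 TPM. Bcl2, a survival factor, rose from 27.5 ± 2.28 to 49.5 ± 3.75 TPM (log2 change 0.70), and the self-renewal marker Slamf6 rose from 0.376 ± 0.0804 to 1.66 ± 0.389 TPM (0.82). Il7r, the receptor for interleukin 7, rose from 18.8 ± 7.06 to 33.4 ± 3.21 TPM with a log2 change of 0.74, which was 0.44 without OVA replicate 2.

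Some members went the other way or were not called. Cd55, a complement regulator, fell from 56.5 ± 18.4 to 7.26 ± 0.788 TPM (log2 change -2.88, adjusted p = 6.59e-06). Eomes, a T-box factor of memory and natural killer cells, fell from 178 ± 44.7 to 82.8 ± 15.6 TPM (-1.2). Lef1, the closest relative of Tcf7, overlapped between the groups, at 25.5, 24.5 and 28.6 TPM with OVA and at 29.5, 26.6 and 31.3 TPM with citraconate (log2 change 0.025, adjusted p = 0.121). It was called higher without OVA replicate 3 or without citraconate replicate 2, with changes of 0.071 and 0.079 relative to the median gene. Myb, another stemness factor, also overlapped, at 42 ± 3.43 and 43 ± 6.75 TPM in OVA and citraconate (adjusted p = 0.883).

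**Figure D2:**
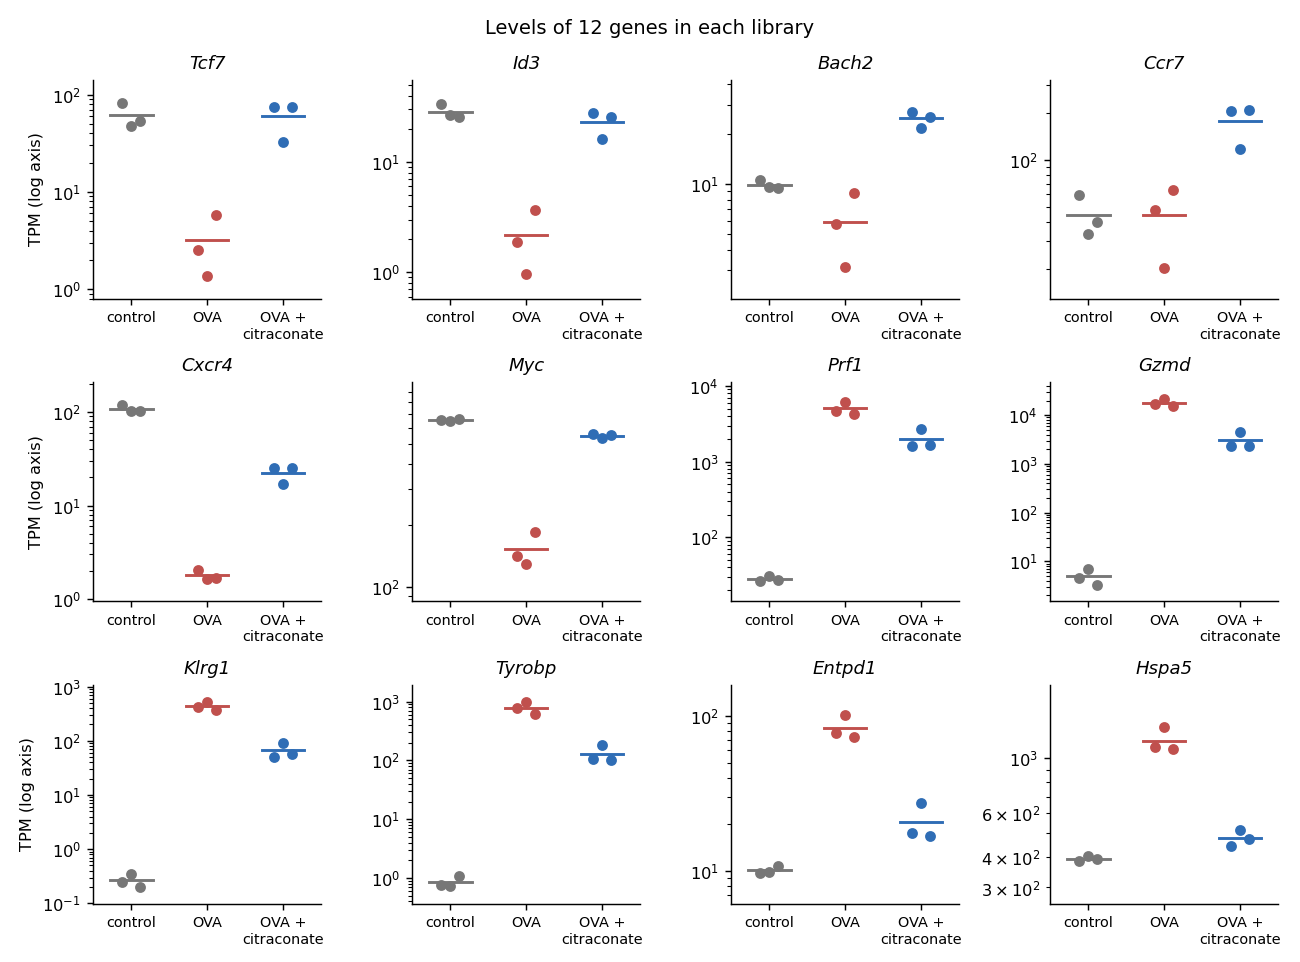
TPM of 12 genes on log axes in each of the 9 libraries, control in grey, OVA in red and OVA plus citraconate in blue, with a bar at the group mean. Tcf7, Id3, Bach2, Ccr7, Cxcr4 and Myc are higher in all 3 citraconate libraries than in any OVA library, and Prf1, Gzmd, Klrg1, Tyrobp, Entpd1 and Hspa5 are lower.

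Among chemokine, cytokine and egress receptors 23 of 31 tested members rose, 6 fell and 2 were not called, and the median log2 change was 0.69. Cxcr4, the receptor for CXCL12, stood at 2.03, 1.64 and 1.68 TPM with OVA and at 25, 17.2 and 25.1 TPM with citraconate (log2 change 2.93, 95% confidence interval 2.62 to 3.24, adjusted p = 1.79e-06), and the groups were far apart. It remained well under its control level of 109 ± 10.2 TPM. Gpr183, a receptor for oxysterols that guides cells within lymphoid tissue, rose from 8.26 ± 3.42 to 32.4 ± 4.08 TPM (log2 change 1.78). Ccr2, a receptor for inflammatory chemokines, fell from 72.3 ± 4.77 to 22.6 ± 4.41 TPM (-1.77), and Il12rb1, a subunit of the interleukin 12 receptor, fell from 103 ± 15.2 to 32.2 ± 7.83 TPM (-1.78). Integrins and adhesion molecules were mixed, as 15 of 26 tested members rose, 9 fell and 2 were not called, and the median log2 change was 0.44. Itga1, the collagen-binding integrin of tissue-resident T cells, stood at 31.7, 43.9 and 26.6 TPM with OVA and at 2.17, 3.55 and 1.24 TPM with citraconate (log2 change -3.55, 95% confidence interval -4.12 to -2.99, adjusted p = 8.04e-06). Pecam1 fell from 276 ± 60.9 to 55.5 ± 12.6 TPM (-2.42). The tetraspanin genes Cd81 and Cd9 rose from 9.17 ± 4.21 to 54.9 ± 6.88 TPM (2.43) and from 30.1 ± 12.7 to 131 ± 11.1 TPM (2.05). Cd44, an activation and memory marker that binds hyaluronan, rose from 56.5 ± 25.5 to 135 ± 15.9 TPM (1.23).

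Other genes with the largest increases had varied functions. Cd24a, a surface glycoprotein of immature lymphocytes, stood at 2.37, 2.24 and 3.59 TPM with OVA and at 43.2, 39.1 and 53.8 TPM with citraconate (log2 change 3.52, 95% confidence interval 3.18 to 3.86, adjusted p = 1.0e-06), well above its control level of 4.4 ± 0.272 TPM. Nrn1, which encodes neuritin, stood at 130.4, 50.6 and 203 TPM with OVA and at 1084, 866 and 1031 TPM with citraconate (log2 change 3.03, adjusted p = 7.85e-05) against 78.3 ± 2.98 TPM in control. Igfbp7, a secreted binding protein, rose from 42.7 ± 23.1 to 359.5 ± 36.3 TPM (3.1), with control at 3.3 ± 0.757 TPM. In all 3 genes every citraconate library lay above the control mean and, as the naming rule required, above every OVA library. Csf2, the gene of the cytokine GM-CSF, stood at 32.9, 30.8 and 62.7 TPM with OVA and at 243, 423 and 219 TPM with citraconate (log2 change 2.67, adjusted p = 4.96e-05), with citraconate replicate 2 the highest library. Xcl1, a chemokine that attracts cross-presenting dendritic cells, rose from 552 ± 286 to 1741 ± 273 TPM (1.69), with OVA replicate 2 the lowest library of its group. Slfn1, of the schlafen family linked to quiescence, rose from 2.08 ± 1.18 to 22 ± 2.74 TPM (2.85), and Tagap rose from 34.3 ± 16.6 to 249 ± 18.9 TPM (2.82). Aff3, a nuclear protein of lymphoid cells, rose from 1.3 ± 1.12 to 14.6 ± 3.56 TPM (2.74). In control Slfn1 stood at 40.9 ± 0.225 TPM, more than with citraconate. Less than with citraconate were the control levels of Tagap (54.7 ± 7.98 TPM), Aff3 (7.83 ± 1.34 TPM), Csf2 (9.11 ± 2.25 TPM) and Xcl1 (3.46 ± 1.73 TPM).

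In all, 17 genes that the naming rule allowed stood under 1 TPM with OVA and at 5 TPM or more with citraconate. Pygl, the liver form of glycogen phosphorylase, rose from 0.418 ± 0.204 to 10.4 ± 3.47 TPM, with control at 97.6 ± 4.14 TPM. Matk, a kinase related to CSK, rose from 0.876 ± 0.444 to 12.8 ± 3.06 TPM, and Selenbp1, a selenium-binding protein, rose from 0.112 ± 0.0419 to 5.51 ± 2.15 TPM. Pacsin1, an adaptor of membrane trafficking, rose from 0.83 ± 0.568 to 12.8 ± 2.04 TPM, while control stood at 0.904 ± 0.115 TPM. St8sia1, the enzyme that makes the ganglioside GD3, rose from 0.483 ± 0.282 to 7.49 ± 1.46 TPM, and Atp1b2, a subunit of the sodium pump, rose from 0.413 ± 0.26 to 6.27 ± 1.0 TPM. Their control levels were 8.44 ± 1.54 TPM for St8sia1 and 0.455 ± 0.241 TPM for Atp1b2. The reverse pattern, from at least 5 TPM to under 1, was seen for 13 genes. Acvrl1, a receptor of the TGF-beta superfamily, fell from 13 ± 7.06 to 0.39 ± 0.382 TPM, Anxa3, an annexin, from 9.85 ± 0.851 to 0.951 ± 0.504 TPM, and Clec4e, a lectin receptor of myeloid cells, from 6.17 ± 1.77 to 0.299 ± 0.124 TPM.

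The T cell receptor complex and its signalling genes were mostly higher with citraconate: 25 of 35 tested members rose, 5 fell and 5 were not called, and the median log2 change was 0.66 (25 and 9 with scaling). Cd3e, a signalling chain of the receptor, stood at 521, 374 and 645 TPM with OVA and at 1305, 1187 and 1351 TPM with citraconate (log2 change 1.23, 95% confidence interval 0.89 to 1.57, adjusted p = 5.93e-05), against 1405 ± 23 TPM in control. Cd8b1, the second coreceptor chain, rose from 177 ± 47.8 to 347 ± 31.4 TPM (log2 change 0.88), and Trbc2, a constant region of the receptor, rose from 1085 ± 193 to 2275 ± 323 TPM (0.95). Cd6, an adhesion receptor that tunes the signal, rose from 71.9 ± 33.3 to 243 ± 17.5 TPM (1.74). Plcg1, the phospholipase that starts calcium signalling, rose from 6.55 ± 3.0 to 20.9 ± 4.47 TPM (1.48) and Sla, an adaptor that lowers receptor levels, from 18.1 ± 8.23 to 64.1 ± 8.78 TPM (1.73). The TEC family kinases Txk and Tec fell, Txk from 36.4 ± 6.62 to 11.7 ± 3.0 TPM (-1.69) and Tec from 24.3 ± 5.31 to 9.0 ± 1.38 TPM (-1.45). Thy1 overlapped between the groups (2736 ± 34.9 and 2639.6 ± 216 TPM; adjusted p = 0.45); it was called lower with scaling and without citraconate replicate 2, where its change relative to the median gene was -0.25. Of the GIMAP GTPases, which support lymphocyte survival, 8 of 8 tested members rose, 0 fell and 0 were not called, and the median log2 change was 0.88. Gimap4, the most abundant of those named, rose from 299 ± 83.7 to 759.6 ± 93.3 TPM (1.25), and Gimap5 from 43.6 ± 7.79 to 114 ± 1.18 TPM (1.26).

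Genes of the early response to receptor triggering rose together, as 30 of 36 tested members rose, 0 fell and 6 were not called, and the median log2 change was 0.94. Nr4a1, an orphan nuclear receptor that reports receptor signal strength, stood at 14.9, 7.44 and 24.5 TPM with OVA and at 95.3, 64 and 72.9 TPM with citraconate (log2 change 2.24, 95% confidence interval 1.5 to 2.98, adjusted p = 1.99e-04). Egr2, a factor that restrains activation, stood at 11.3, 7.12 and 13.7 TPM with OVA and at 54.6, 65.7 and 73 TPM with citraconate (log2 change 2.39, adjusted p = 9.28e-06), above the control level of 8.27 ± 1.06 TPM. Fos, a subunit of AP-1, rose from 8.86 ± 1.11 to 42.8 ± 7.7 TPM (2.02). Myc, the factor that drives growth and proliferation, stood at 142, 129 and 186 TPM with OVA and at 558, 534 and 552 TPM with citraconate (log2 change 1.74, 95% confidence interval 1.5 to 1.97, adjusted p = 4.98e-06), with narrow groups and control at 652 ± 6.45 TPM. Cd69, the retention receptor of freshly activated cells, rose from 112 ± 8.67 to 220.2 ± 18.8 TPM (0.85).

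Effector molecules split. In this list 9 of 29 tested members rose, 14 fell and 6 were not called, and the median log2 change was -0.28 (6 and 15 with scaling), and the members that fell were led by the granzymes, the serine proteases of cytotoxic granules. Granzyme genes together took 8.38%, 9.54% and 7.66% of all transcripts in the OVA libraries and 3.22%, 4.87% and 3.30% in the citraconate libraries. Gzmd stood at 17244, 21908 and 15235 TPM with OVA and at 2373, 4599 and 2338 TPM with citraconate (log2 change -2.73, 95% confidence interval -3.35 to -2.1, adjusted p = 4.57e-05). Gzmg stood at 12004, 15200.4 and 10304 TPM with OVA and at 944, 1764 and 917 TPM with citraconate (log2 change -3.54, 95% confidence interval -4.3 to -2.79, adjusted p = 2.93e-05). Citraconate replicate 2 held the most of both genes in its group and was still below every OVA library. Gzma, a granzyme with tryptase activity, stood at 8171, 12508 and 6583 TPM with OVA and at 1741, 3695 and 1799.9 TPM with citraconate (log2 change -2.08, adjusted p = 4.48e-04). Gzmc fell less, from 17084 ± 551 to 10895 ± 2408 TPM (-0.79), and Gzmk, a granzyme of memory-type cells, fell from 46.1 ± 16.8 to 15.1 ± 4.96 TPM (-1.66). How reads were divided among the very similar genes Gzme, Gzmd, Gzmg and Gzmf is uncertain.

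Gzmb, the main inducer of target cell death among the granzymes, was the exception. It stood at 19977, 18749 and 19608 TPM with OVA and at 16273, 22240.5 and 17061 TPM with citraconate (log2 change -0.21, 95% confidence interval -0.45 to 0.042, adjusted p = 0.533), and the groups overlapped. That adjusted p tests the change before the shift by the median gene, -0.083, and with scaling the adjusted p was 0.169. Without citraconate replicate 2 Gzmb was called lower, with a change of -0.35 and an adjusted p of 0.0188, and that library held the most Gzmb of the 6. By gene order in RefSeq, Gzmb lies at one end of a cluster of serine protease genes on chromosome 14, next to Gzmc, Gzmf, Gzmn, Gzmg, Gzmd and Gzme, followed by Ctsg, Mcpt8 and, past several genes of the Mcpt and Cma families under the minimum level, Cma1. Ctsg, which encodes cathepsin G, a protease otherwise typical of neutrophils, stood at 254, 244 and 236 TPM with OVA and at 19.6, 26.6 and 19.6 TPM with citraconate (log2 change -3.56, 95% confidence interval -3.8 to -3.32, adjusted p = 2.55e-07) and was listed at 0 in control. The mast cell protease genes Mcpt8 and Cma1 fell from 193 ± 26.5 to 31.1 ± 10.4 TPM (-2.76) and from 55.9 ± 10.2 to 6.82 ± 1.72 TPM (-2.99). The defining neutrophil genes S100a8 and S100a9 were at 0 in all 6 libraries.

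**Figure D3:**
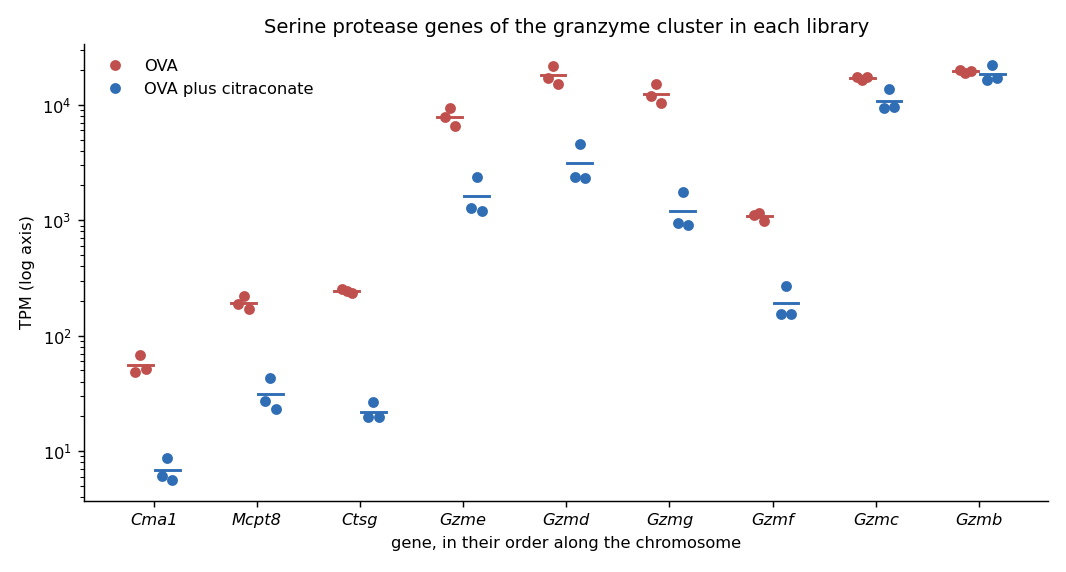
TPM on a log axis of the tested serine protease genes of the granzyme cluster, in their order along chromosome 14, for the 3 OVA (red) and 3 citraconate (blue) libraries, with a bar at each group mean; Gzmn, at 0 in 1 citraconate library, is not drawn. The groups are separate from Cma1 to Gzmc and overlap at Gzmb.

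Perforin and other effector genes did not follow one course. Prf1, the gene of the pore-forming protein perforin, stood at 4711, 6105 and 4327 TPM with OVA and at 1632, 2663 and 1664 TPM with citraconate (log2 change -1.49, 95% confidence interval -1.9 to -1.08, adjusted p = 1.51e-04), with control at 28.2 ± 2.59 TPM. Ifng, the gene of interferon gamma, stood at 962, 541 and 1023 TPM with OVA and at 424, 619 and 447 TPM with citraconate (log2 change -0.85, adjusted p = 0.0181). Here OVA replicate 2 lay within the citraconate range, and the call was lost without OVA replicate 1 or 3 or citraconate replicate 1 or 3 (adjusted p from 0.0611 to 0.0695), while without replicate 2 of both groups the change was -1.31. Tnf rose from 20.9 ± 3.14 to 34.8 ± 6.53 TPM with a change of 0.58, which was 0.35 without replicate 2 of both groups. Tnfsf10, the death ligand TRAIL, stood at 21.6, 13.3 and 27.5 TPM with OVA and at 85.5, 85.4 and 81 TPM with citraconate (log2 change 1.9, 95% confidence interval 1.46 to 2.34, adjusted p = 2.64e-05), above all OVA libraries. Ccl5, a chemokine of memory and effector cells, rose from 556 ± 211 to 1386 ± 535 TPM (1.2); without replicate 2 of both groups the change was 0.59.

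Receptors and adaptors shared with natural killer cells fell with citraconate. Of this list 5 of 30 tested members rose, 20 fell and 5 were not called, and the median log2 change was -0.98. Tyrobp, the adaptor DAP12 that carries signals of activating receptors, stood at 786, 969 and 612 TPM with OVA and at 106, 180.4 and 102 TPM with citraconate (log2 change -2.75, 95% confidence interval -3.23 to -2.26, adjusted p = 1.24e-05). Fcer1g, a related adaptor of Fc receptors, stood at 873, 1205 and 722 TPM with OVA and at 103, 206 and 93.2 TPM with citraconate (log2 change -2.97, adjusted p = 2.4e-05). Klrg1, an inhibitory receptor of terminal effector cells, stood at 429, 524 and 372 TPM with OVA and at 49.9, 92.5 and 56.9 TPM with citraconate (log2 change -2.87, 95% confidence interval -3.32 to -2.43, adjusted p = 7.57e-06). In all 3 genes the citraconate libraries lay below the OVA libraries and far above the control levels, which were 0.864 ± 0.189 TPM, 2.97 ± 0.396 TPM and 0.265 ± 0.0733 TPM. Sh2d1b2, an adaptor of SLAM receptors in natural killer cells, fell from 85.8 ± 19 to 7.58 ± 2.55 TPM (-3.48), and Fcgr3, an Fc receptor for IgG, fell from 58.8 ± 14.9 to 8.54 ± 3.99 TPM (-2.81). Klrk1, which encodes NKG2D, an activating receptor for stress ligands, rose from 54.1 ± 18.9 to 129.9 ± 19.2 TPM (1.18), and the adhesion receptor Cd226 rose from 6.31 ± 2.08 to 23.2 ± 3.64 TPM (1.63).

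Of the 12 natural killer cell markers, 11 fell and 1 rose, and their summed level was 11338 ± 3499 TPM with OVA and 3112 ± 1206 TPM with citraconate, most of it Gzma. The marker that rose was Klrc1, at 166, 80.3 and 199 TPM with OVA and at 320, 247 and 296 TPM with citraconate. None of the 12 was at 0 in all 6 libraries. The 26 lectin receptor genes with symbols starting in Klr together took 0.11% of all transcripts with OVA and 0.0953% with citraconate. Of the 12 T cell markers, 11 rose, and their summed level was 6176 ± 841 TPM with OVA and 10611 ± 563 TPM with citraconate. The part of natural killer cells or of changing cell proportions in these results was not tested. Klra genes of this family have near-identical copies, so their single values are not given.

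Inhibitory receptors and exhaustion genes moved in both directions: 15 of 25 tested members rose, 6 fell and 4 were not called, and the median log2 change was 0.79. The median was 0.40 without OVA replicate 2. Tox, the factor that maintains exhausted T cells, stood at 0.825, 0.349 and 1.77 TPM with OVA and at 11.6, 7.93 and 11.5 TPM with citraconate (log2 change 2.44, 95% confidence interval 1.84 to 3.05, adjusted p = 4.01e-05), above the control level of 1.26 ± 0.559 TPM. Ctla4 stood at 79.8, 55.7 and 104 TPM with OVA and at 278, 259 and 282 TPM with citraconate (log2 change 1.68, adjusted p = 2.3e-05), and Lag3 and Tigit rose from 147 ± 52.3 to 467 ± 17.4 TPM (1.61) and from 156 ± 44.2 to 474 ± 24.5 TPM (1.51); all 3 encode inhibitory receptors. Entpd1, which encodes CD39, an enzyme that breaks down extracellular ATP, stood at 78, 101 and 73.3 TPM with OVA and at 17.6, 27.5 and 16.8 TPM with citraconate (log2 change -2.12, 95% confidence interval -2.51 to -1.73, adjusted p = 1.63e-05). Havcr2, which encodes the inhibitory receptor TIM-3, stood at 483, 561 and 469 TPM with OVA and at 171, 282 and 183 TPM with citraconate (log2 change -1.4, adjusted p = 2.08e-04). Thus Tox, Ctla4, Lag3 and Tigit were higher, and Entpd1 and Havcr2 lower, in each citraconate library than in any OVA library. Adgrg1, an adhesion receptor of cytotoxic cells, fell from 12.5 ± 1.29 to 2.72 ± 0.505 TPM (-1.99). Pdcd1, the PD-1 gene, stood at 148 ± 45 and 204 ± 2.31 TPM in OVA and citraconate (log2 change 0.39, adjusted p = 0.0452). That call was lost with scaling (adjusted p = 0.107) and when any of the 6 libraries except OVA replicate 3 was left out; without OVA replicate 2 the change was 0.13.

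Of the transcription factors of effector fate 10 of 17 tested members rose, 2 fell and 5 were not called, and the median log2 change was 0.51; 4 were called lower with scaling or without citraconate replicate 2. Stat4, the factor downstream of interleukin 12, rose from 41.4 ± 18.9 to 126 ± 9.31 TPM (1.57), Irf4, a factor of activation strength, from 36.5 ± 13.8 to 103 ± 10.3 TPM (1.42), Ikzf2, the factor Helios, from 1.43 ± 0.259 to 8.42 ± 1.28 TPM (1.83), and Maf from 1.68 ± 0.125 to 5.64 ± 1.32 TPM (1.17). Id2, an inhibitor of E proteins that favours effector cells, fell from 1212 ± 171 to 809 ± 110.5 TPM (-0.70), opposite to Id3. Batf, an AP-1 partner of Irf4, fell from 101 ± 6.66 to 78.7 ± 2.55 TPM (-0.48). Tbx21, which encodes T-bet, overlapped (27.3 ± 4.38 and 24.7 ± 1.52 TPM; adjusted p = 0.353), and so did Prdm1, which encodes BLIMP-1 (35.8 ± 6.11 and 42.5 ± 9.77 TPM; adjusted p = 0.205). Prdm1 was called higher when replicate number was a term of the fit.

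The largest decreases outside these lists included genes of other tissues. B4galnt2, a glycosyltransferase of blood group antigens, stood at 29.3, 45.2 and 26.4 TPM with OVA and at 1.06, 2.25 and 0.808 TPM with citraconate (log2 change -4.0, 95% confidence interval -4.53 to -3.46, adjusted p = 5.08e-06) and had the largest decrease of the genes allowed by the naming rule. Tmsb15a, an actin-binding thymosin, stood at 113, 119 and 56.3 TPM with OVA and at 5.6, 11.3 and 6.57 TPM with citraconate (log2 change -3.56, adjusted p = 1.31e-05) and was listed at 0 in control. Avil, which encodes the actin regulator advillin, fell from 336 ± 74.7 to 34.4 ± 15.9 TPM (-3.44), Tmem119, known as a microglial marker, from 160.2 ± 60.7 to 15.6 ± 7.35 TPM (-3.43), and Dsc2, a desmosomal cadherin, from 67.5 ± 14.4 to 7.22 ± 2.0 TPM (-3.19). Gpx8, a peroxidase of the endoplasmic reticulum, fell from 87.9 ± 29.5 to 10.3 ± 4.87 TPM (-3.12). Cdh1, which encodes E-cadherin, the ligand of KLRG1, fell from 19.8 ± 4.56 to 2.05 ± 0.489 TPM (-2.89). Of the 12 stromal, endothelial and epithelial markers, only Pecam1, Epcam and Cdh1 passed the minimum level and all 3 fell. The rest stayed at or under 0.951 TPM in every one of the 6 libraries, with Krt18 the highest. Actb, the gene of beta-actin, fell from 14719 ± 1537 to 8758 ± 257 TPM (-0.87).

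Genes for protein folding in the endoplasmic reticulum and for amino acid supply were lower with citraconate. Several transcription factors act on them: ATF6 and XBP1 bind an endoplasmic reticulum stress element (ERSE) in chaperone promoters, and ATF4 binds an amino acid response element (CARE). The promoter windows of RefSeq, on build GRCm38.p6, were searched over the 250 bases before each gene's start on both strands for the ERSE (CCAAT and CCACG with 9 bases of any kind between them) and TGATGNAA (CARE). An ERSE was found in 9 of the 23 chaperone list genes that could be matched (37.5% of their windows). The share was 0.113% of 32851 windows of all genes and 0.136% of windows of the genes tested. A CARE was found in 7 of 31 matched ATF4 list genes (18.9% of windows) and in 3 of 12 matched tRNA synthetase genes (25%). Its share was 3.45% of all windows and 2% of windows of the genes tested. A match is a description of the letters and not a site shown to be bound. The lists were written from general knowledge as genes of these responses, so their high shares are no test of these data. The part of these factors in the decreases was not tested. The stretches of 8 of these genes, chosen among those that fell, are printed 5′ to 3′ along the gene's strand, with the motif in capitals in either orientation.
Hspa5 (chr2:34772005-34772063, plus strand): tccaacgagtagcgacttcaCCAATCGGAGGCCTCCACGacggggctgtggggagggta
Calr (chr8:84847055-84847113, minus strand): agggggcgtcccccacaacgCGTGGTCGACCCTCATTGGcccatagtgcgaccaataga
Pdia6 (chr12:17266471-17266529, plus strand): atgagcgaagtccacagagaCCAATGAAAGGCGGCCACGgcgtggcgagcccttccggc
Creld2 (chr15:88819500-88819558, plus strand): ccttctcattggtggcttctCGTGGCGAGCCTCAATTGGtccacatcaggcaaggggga
Nupr1 (chr7:126625553-126625600, minus strand): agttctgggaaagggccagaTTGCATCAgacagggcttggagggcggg
Pycr1 (chr11:120643824-120643871, minus strand): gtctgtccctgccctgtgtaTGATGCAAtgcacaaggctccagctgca
Slc7a11 (chr3:50443633-50443699, minus strand): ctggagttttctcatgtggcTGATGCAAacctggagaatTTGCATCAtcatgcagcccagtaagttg
Aars (chr8:111033710-111033757, plus strand): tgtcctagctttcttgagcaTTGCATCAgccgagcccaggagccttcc

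Of the chaperone and unfolded protein list 0 of 29 tested members rose, 26 fell and 3 were not called, and the median log2 change was -0.87. Hspa5, which encodes the chaperone BiP, stood at 1116, 1335 and 1094 TPM with OVA and at 442, 513 and 471 TPM with citraconate (log2 change -1.43, 95% confidence interval -1.61 to -1.25, adjusted p = 5.08e-06), with control at 393 ± 9.79 TPM. Pdia6, a disulfide isomerase with the ERSE shown, stood at 447, 521 and 429.8 TPM with OVA and at 172, 195 and 185 TPM with citraconate (log2 change -1.46, adjusted p = 4.98e-06). Calr, the calcium-binding chaperone calreticulin, fell from 2312 ± 264 to 1048 ± 112 TPM (-1.26), Creld2, a secreted stress protein, from 267 ± 39.2 to 109 ± 10.9 TPM (-1.4), and Hyou1, a large chaperone, from 182 ± 21.9 to 75.8 ± 5.74 TPM (-1.37). The summed level of the list was 10599 ± 1049 TPM with OVA and 5380.4 ± 255 TPM with citraconate, against 4767 ± 90.8 TPM in control.

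In the ATF4 and amino acid list 2 of 37 tested members rose, 29 fell and 6 were not called, and the median log2 change was -0.81. Trib3, a pseudokinase induced by ATF4, stood at 43.8, 49.4 and 35.4 TPM with OVA and at 7.52, 11.4 and 8.08 TPM with citraconate (log2 change -2.26, 95% confidence interval -2.61 to -1.91, adjusted p = 7.6e-06), below its control level of 27.3 ± 2.66 TPM. Nupr1, a stress-induced nuclear protein, fell from 17.6 ± 2.62 to 2.45 ± 0.699 TPM (-2.56), and Pycr1, an enzyme of proline synthesis, from 13 ± 2.09 to 2.48 ± 0.246 TPM (-2.12). Slc7a3, a carrier of cationic amino acids, fell from 14.8 ± 1.75 to 3.42 ± 1.45 TPM (-2.01), and Slc7a11, the cystine importer, with 2 CARE matches in the stretch shown, from 1.79 ± 0.382 to 0.185 ± 0.137 TPM (-1.35). Atf4 itself fell from 625 ± 5.65 to 423 ± 12.4 TPM (-0.68), Ddit3, the stress factor CHOP, from 30.02 ± 2.13 to 14.5 ± 1.06 TPM (-1.12), and Asns, asparagine synthetase, from 223 ± 20.4 to 76.6 ± 5.73 TPM (-1.65). The members that rose were Vldlr, a lipoprotein receptor (from 0.189 ± 0.0851 to 2.41 ± 0.634 TPM, 1.39), and Atf3, a stress factor (from 69.6 ± 17.3 to 125 ± 20.3 TPM, 0.73, or 0.40 without replicate 2 of both groups), and both hold a CARE in the window searched. Of the aminoacyl-tRNA synthetases, which load amino acids onto tRNA, 1 of 20 tested members rose, 17 fell and 2 were not called, and the median log2 change was -0.76. Aars, for alanine, stood at 125, 144 and 128 TPM with OVA and at 64, 77.3 and 68.1 TPM with citraconate (log2 change -1.04, 95% confidence interval -1.21 to -0.87, adjusted p = 1.31e-05), and Lars, for leucine, and Nars, for asparagine, fell from 135 ± 8.26 to 67.9 ± 5.74 TPM (-1.1) and from 365 ± 21.5 to 189 ± 15.2 TPM (-1.07).

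Ribosome biogenesis genes fell while Myc rose. In that list 1 of 34 tested members rose, 29 fell and 4 were not called, and the median log2 change was -0.48. Rrp9, which acts in processing of ribosomal RNA, stood at 80.6, 83.9 and 81.8 TPM with OVA and at 43.2, 47.6 and 43.2 TPM with citraconate (log2 change -0.99, 95% confidence interval -1.11 to -0.86, adjusted p = 5.21e-06). Bop1, a factor of large subunit assembly, fell from 156 ± 9.26 to 96.4 ± 5.85 TPM (-0.81), and Utp20, of small subunit processing, from 30.3 ± 2.84 to 16.9 ± 1.08 TPM (-0.93). Polr1c, a subunit shared by RNA polymerases I and III, rose from 64.6 ± 1.81 to 81.1 ± 4.78 TPM (0.20). The ribosomal protein genes themselves stood near the median gene, with a median of 0.044 over 51 tested; 32 were called higher and 3 lower, but 5 and 6 with scaling, so no direction is given for them. The number called higher was also 21, 14 and 19 without OVA replicate 2, citraconate replicate 1 and citraconate replicate 3. Among heat shock and mitochondrial chaperones 2 of 24 tested members rose, 9 fell and 13 were not called, and the median log2 change was -0.21 (1 and 13 with scaling, and 4 higher without citraconate replicate 2). Hsp90aa1, a cytosolic chaperone, fell from 915 ± 64.2 to 608 ± 14.5 TPM (-0.71), and Hspa9, the main chaperone of the mitochondrial matrix, from 437 ± 18.7 to 302 ± 15.3 TPM (-0.66).

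**Figure D4:**
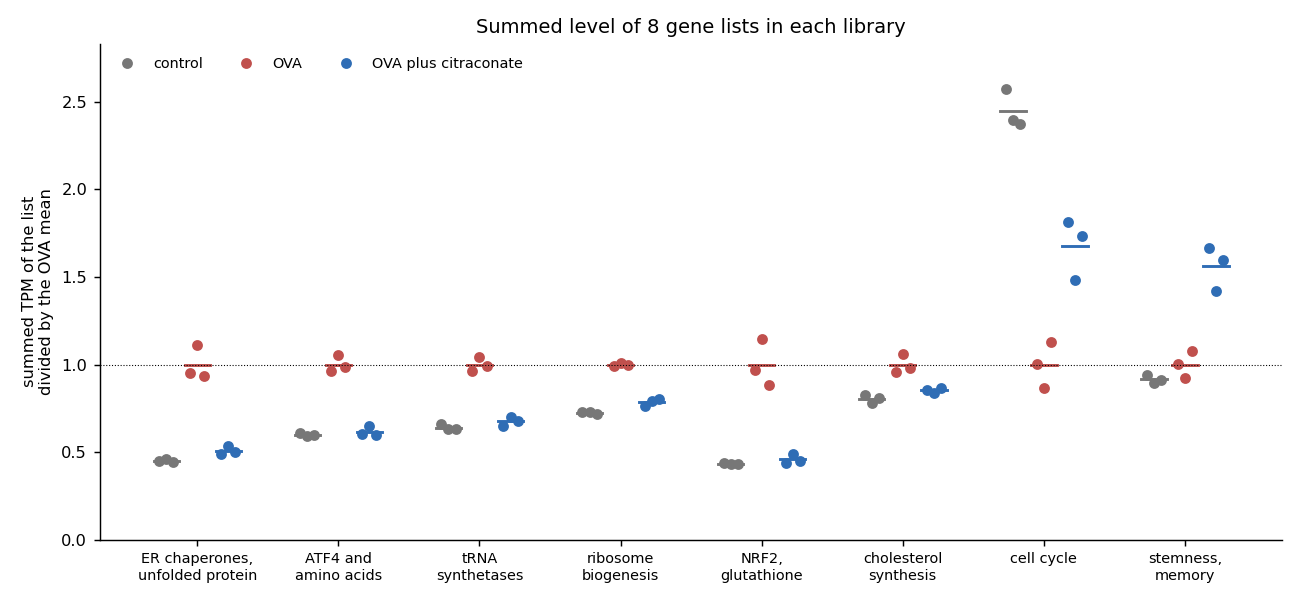
Summed TPM of 8 gene lists in each library, divided by the mean of the OVA libraries (dotted line at 1), with a bar at each group mean; control is grey, OVA red and OVA plus citraconate blue. The citraconate points lie below all OVA points for the first 6 lists, and above them for cell cycle and stemness genes. Most of the fall in the NRF2 sum, from 10696 to 4905 TPM in the means, was Ftl1, which fell from 6727 to 1786 TPM.

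NRF2 targets and antioxidant genes were more often lower than higher, as 7 of 37 tested members rose, 20 fell and 10 were not called, and the median log2 change was -0.29 (5 and 23 with scaling). Hmox1, the heme oxygenase that releases iron from heme, stood at 101, 134 and 92.3 TPM with OVA and at 22.7, 31.5 and 22 TPM with citraconate (log2 change -2.18, 95% confidence interval -2.55 to -1.82, adjusted p = 9.68e-06). Ftl1, the light chain of the iron store ferritin, stood at 6460.4, 8110.1 and 5609 TPM with OVA and at 1627, 2159.8 and 1570.3 TPM with citraconate (log2 change -2.03, 95% confidence interval -2.35 to -1.72, adjusted p = 7.92e-06). The groups were well separated for both, and control held 14.9 ± 1.86 TPM and 1169 ± 27 TPM. Txnrd1, thioredoxin reductase, fell from 143 ± 3.84 to 109.6 ± 6.37 TPM (-0.50), Me1, malic enzyme, from 17.9 ± 5.37 to 4.96 ± 2.14 TPM (-1.81), and Osgin1, an oxidative stress gene, from 16.8 ± 2.01 to 4.35 ± 1.56 TPM (-1.9). Nfe2l2, which encodes NRF2, rose from 2.31 ± 0.429 to 7.08 ± 0.889 TPM (1.17), and Nqo1, a quinone reductase and standard NRF2 target, rose at a low level, from 0.751 ± 0.312 to 1.88 ± 0.536 TPM (0.60). The NRF2 antioxidant element TGACNNNGC was in 8 of 31 matched genes of this list (20% of windows). Its share was 10.2% of all windows and 12% of windows of the genes tested, and no stretch is printed for it. In the iron and heme list 9 of 24 tested members rose, 7 fell and 8 were not called, and the median log2 change was -0.14 (-0.083 without replicate 2 of both groups), and its 37.5% higher and 29.2% lower compare with 38.6% and 21.9% among all genes tested. Steap3, an iron reductase, fell from 8.22 ± 2.23 to 1.63 ± 0.508 TPM (-1.92), and Hmox2, the constitutive heme oxygenase, rose from 62.8 ± 1.1 to 150.3 ± 24.7 TPM (1.11).

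Acod1, the gene of the enzyme that makes itaconate, was under the minimum level, at 0.0584, 0.0595 and 0.386 TPM with OVA and 0 in all 3 citraconate libraries. Of the genes linked to itaconate and its breakdown, 11 of 20 tested members rose, 2 fell and 7 were not called, and the median log2 change was 0.11 (8 and 7 with scaling). The median was 0.026 without OVA replicate 2 and 0.043 without citraconate replicate 2. Clybl, an enzyme of mitochondrial citramalyl-CoA breakdown, rose from 10.7 ± 1.81 to 29.5 ± 7.13 TPM (1.25), and Nfkbiz, an inducible NF-kB regulator, rose from 5.41 ± 0.486 to 16 ± 0.646 TPM (1.28). The succinate dehydrogenase gene Sdha was near the median gene, at 172 ± 7.27 and 190.1 ± 10.1 TPM (0.024). Its call (adjusted p = 0.0359) was lost with scaling and with some libraries left out, among them OVA replicate 1 and OVA replicate 2 (adjusted p = 0.125 and 0.0716).

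Glycolysis and hypoxia genes leaned higher: 21 of 35 tested members rose, 4 fell and 10 were not called, and the median log2 change was 0.24 (18 and 5 with scaling). P4ha2, a collagen prolyl hydroxylase, stood at 2.45, 1.85 and 4.7 TPM with OVA and at 22.1, 17.5 and 18.2 TPM with citraconate (log2 change 2.27, 95% confidence interval 1.81 to 2.74, adjusted p = 1.69e-05), and Egln3, an oxygen sensor, rose from 22.7 ± 5.05 to 66.4 ± 9.29 TPM (1.4). Bnip3l, a receptor for removal of mitochondria, rose from 51 ± 7.47 to 134 ± 23.3 TPM (1.24). Slc16a1, a lactate transporter, fell from 78.6 ± 6.74 to 45.9 ± 2.05 TPM (-0.88). For the TCA cycle list 8 of 37 tested members rose, 7 fell and 22 were not called, and the median log2 change was -0.16, but 3 and 20 were called higher and lower with scaling, and 5 were called higher without citraconate replicate 3. Dlat, a subunit of pyruvate dehydrogenase, fell from 72.4 ± 5.19 to 44.1 ± 1.97 TPM (-0.82) in both scalings. Nuclear genes of the respiratory chain had 19 higher and 10 lower of 60, and 5 and 24 with scaling, with a median of -0.098. The number higher was 10 without OVA replicate 2, OVA replicate 3, citraconate replicate 1 or citraconate replicate 3. Among them Atp5g1, a subunit of ATP synthase, fell from 64.6 ± 4.65 to 34.4 ± 1.35 TPM (-1.01), and Ndufa4, of complex IV, rose from 70.7 ± 4.57 to 116 ± 11.3 TPM (0.58). The mitochondrially encoded gene mt-Co1 rose from 11075 ± 2378 to 18676 ± 2331 TPM (0.65, or 0.39 without replicate 2 of both groups). Of the 13 genes of that genome, 6 were called higher, and 3 with scaling or without citraconate replicate 3. With 1 library left out, their median ran from 0.027 (without OVA replicate 2) to 0.26 (without citraconate replicate 1). It was -0.078 without replicate 2 of both groups and 0.36 with quantile normalization, so its sign was not stable.

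In the cholesterol synthesis list 6 of 25 tested members rose, 10 fell and 9 were not called, and the median log2 change was -0.25 (4 and 15 with scaling). Hmgcs1, the synthase at the start of the pathway, stood at 367, 462 and 369 TPM with OVA and at 198, 218 and 200.2 TPM with citraconate (log2 change -1.07, 95% confidence interval -1.26 to -0.88, adjusted p = 1.73e-05). Msmo1 and Lss, enzymes of later steps, fell from 42.4 ± 5.54 to 25.1 ± 0.91 TPM (-0.85) and from 22.5 ± 2.23 to 14.6 ± 0.771 TPM (-0.71). Acat2, the thiolase ahead of Hmgcs1, rose from 29 ± 0.833 to 43.5 ± 3.18 TPM (0.45). In fatty acid synthesis and oxidation 11 of 34 tested members rose, 7 fell and 16 were not called, and the median log2 change was -0.076; 4 fell without OVA replicate 2, citraconate replicate 1 or citraconate replicate 2. The list's 32.4% higher and 20.6% lower are about the 38.6% and 21.9% among all genes tested. The desaturase genes Scd1 and Fads2 rose from 60.6 ± 6.83 to 119.9 ± 6.64 TPM (0.86) and from 90.00 ± 8.12 to 159 ± 6.37 TPM (0.70), while Fasn, fatty acid synthase, fell from 126 ± 10.6 to 89.6 ± 1.32 TPM (-0.60). Etfb, which passes electrons from fatty acid oxidation, fell from 253 ± 8.08 to 137 ± 5.47 TPM (-1.01).

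Proliferation genes rose as a group. Of the cell cycle and mitosis genes 37 of 38 tested members rose, 0 fell and 1 were not called, and the median log2 change was 0.60 (35 and 1 with scaling), and of the DNA replication genes 30 of 39 tested members rose, 0 fell and 9 were not called, and the median log2 change was 0.37. Foxm1, the factor that drives mitotic genes, stood at 20.04, 15.7 and 26 TPM with OVA and at 59.1, 43.9 and 55.8 TPM with citraconate (log2 change 1.21, 95% confidence interval 0.86 to 1.57, adjusted p = 8.24e-05), and the lowest citraconate value was well above the highest OVA value. Mki67, the proliferation marker, stood at 111, 86.8 and 125 TPM with OVA and at 222, 186 and 196 TPM with citraconate (log2 change 0.79, adjusted p = 2.83e-04), against 299 ± 39.7 TPM in control. Nusap1, a spindle protein, rose from 34.1 ± 9.39 to 88.8 ± 11 TPM (1.26), and E2f2, an activator of replication genes, rose from 11.3 ± 4.2 to 33.6 ± 5.43 TPM (1.43). Rrm1, the large subunit of ribonucleotide reductase, rose from 125 ± 19.2 to 196 ± 17.4 TPM (0.53).

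Interferon-stimulated genes were called in both directions, as 18 of 37 tested members rose, 14 fell and 5 were not called, and the median log2 change was 0.094 (0.056 without citraconate replicate 1). Ly6c2, a surface marker of effector and memory CD8+ T cells, stood at 273, 273 and 245 TPM with OVA and at 45.4, 46.4 and 40.4 TPM with citraconate (log2 change -2.68, 95% confidence interval -2.87 to -2.48, adjusted p = 2.94e-07). Ifitm1, an antiviral membrane protein, stood at 1700.3, 2011 and 1400.4 TPM with OVA and at 309.5, 489 and 266 TPM with citraconate (log2 change -2.42, adjusted p = 1.7e-05), and Ly6a, the antigen Sca-1, fell from 674 ± 143 to 159 ± 53.7 TPM (-2.23). Ifi27l2a, an interferon-induced mitochondrial protein, stood at 21.5, 11.1 and 46.8 TPM with OVA and at 205, 142 and 227 TPM with citraconate (log2 change 2.88, 95% confidence interval 2.01 to 3.74, adjusted p = 1.22e-04), with control at 270 ± 15.9 TPM. Ly6c2 and Ly6a belong to a family of similar genes, as does Ifitm1. Of the MHC class II genes 5 of 7 tested members rose, 0 fell and 2 were not called, and the median log2 change was 1.29, or 0.83 without OVA replicate 2. The summed level of the list was highest in control, at 301 ± 27.4 TPM, against 49.6 ± 21.7 TPM with OVA and 175 ± 27.1 TPM with citraconate. H2-Ab1, the beta chain of I-A, stood at 7.3, 4.86 and 11.8 TPM with OVA and at 88.3, 54.2 and 73.7 TPM with citraconate (log2 change 2.95, 95% confidence interval 2.39 to 3.5, adjusted p = 1.18e-05). Its control level, 147 ± 11.8 TPM, was above all 3 citraconate libraries. H2-DMa, which loads peptides, rose from 5.34 ± 1.36 to 20.6 ± 4.43 TPM (1.65). Cd74, the invariant chain, rose from 26.8 ± 14 to 65.7 ± 5.02 TPM with a change of 1.29, or 0.83 without OVA replicate 2. In the class I and antigen processing list 13 of 22 tested members rose, 3 fell and 6 were not called, and the median log2 change was 0.15 (11 and 5 with scaling). H2-Q7, a class I-like gene with near copies, rose from 108 ± 17 to 226 ± 25.4 TPM (0.94), and B2m, the shared light chain, rose from 3751 ± 42.1 to 4647 ± 175 TPM (0.19).

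In the apoptosis and p53 list 16 of 37 tested members rose, 10 fell and 11 were not called, and the median log2 change was 0.038. Its 43.2% higher and 27% lower lie near the 38.6% and 21.9% among all genes tested, and its median ran from 0.019 (without citraconate replicate 2) to 0.12 (without citraconate replicate 1) with 1 library left out, so nothing is read from the list as a whole. Bcl2l11, which encodes the death activator BIM, stood at 6.71, 5.23 and 7.67 TPM with OVA and at 45.3, 36.8 and 43.6 TPM with citraconate (log2 change 2.4, 95% confidence interval 2.11 to 2.68, adjusted p = 2.77e-06). Btg2, an antiproliferative p53 target, rose from 16.5 ± 1.94 to 68.6 ± 10.1 TPM (1.87), and Fas, the death receptor, from 2.24 ± 0.966 to 7.67 ± 0.942 TPM (1.34). Bid, which links death receptors to mitochondria, fell from 37.3 ± 5.95 to 11.2 ± 1.28 TPM (-1.77), and Gadd45g, a stress and growth arrest gene, fell from 399 ± 60.7 to 183 ± 42.9 TPM (-1.25). Among genes of chromatin 17 of 30 tested members rose, 6 fell and 7 were not called, and the median log2 change was 0.10 (12 and 7 with scaling). Hdac7, a class IIa histone deacetylase of lymphocytes, rose from 97.6 ± 25.5 to 246 ± 19.8 TPM (1.23), Kdm2b, a histone demethylase that recruits Polycomb, from 15.7 ± 4.83 to 37 ± 0.213 TPM (1.11), and Dnmt3b, a DNA methyltransferase, fell from 10.4 ± 0.597 to 3.55 ± 0.569 TPM (-1.45). In the autophagy and lysosome list 17 of 34 tested members rose, 11 fell and 6 were not called, and the median log2 change was 0.10 (13 and 14 with scaling). Ctss, the cathepsin that trims the invariant chain, rose from 5.39 ± 2.25 to 27.2 ± 6.68 TPM (2.04), while Sqstm1, the autophagy receptor p62 and an NRF2 target, stood at 559, 707 and 539 TPM with OVA and at 199, 259 and 207 TPM with citraconate (log2 change -1.56, 95% confidence interval -1.81 to -1.31, adjusted p = 9.88e-06).

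**Figure D5:**
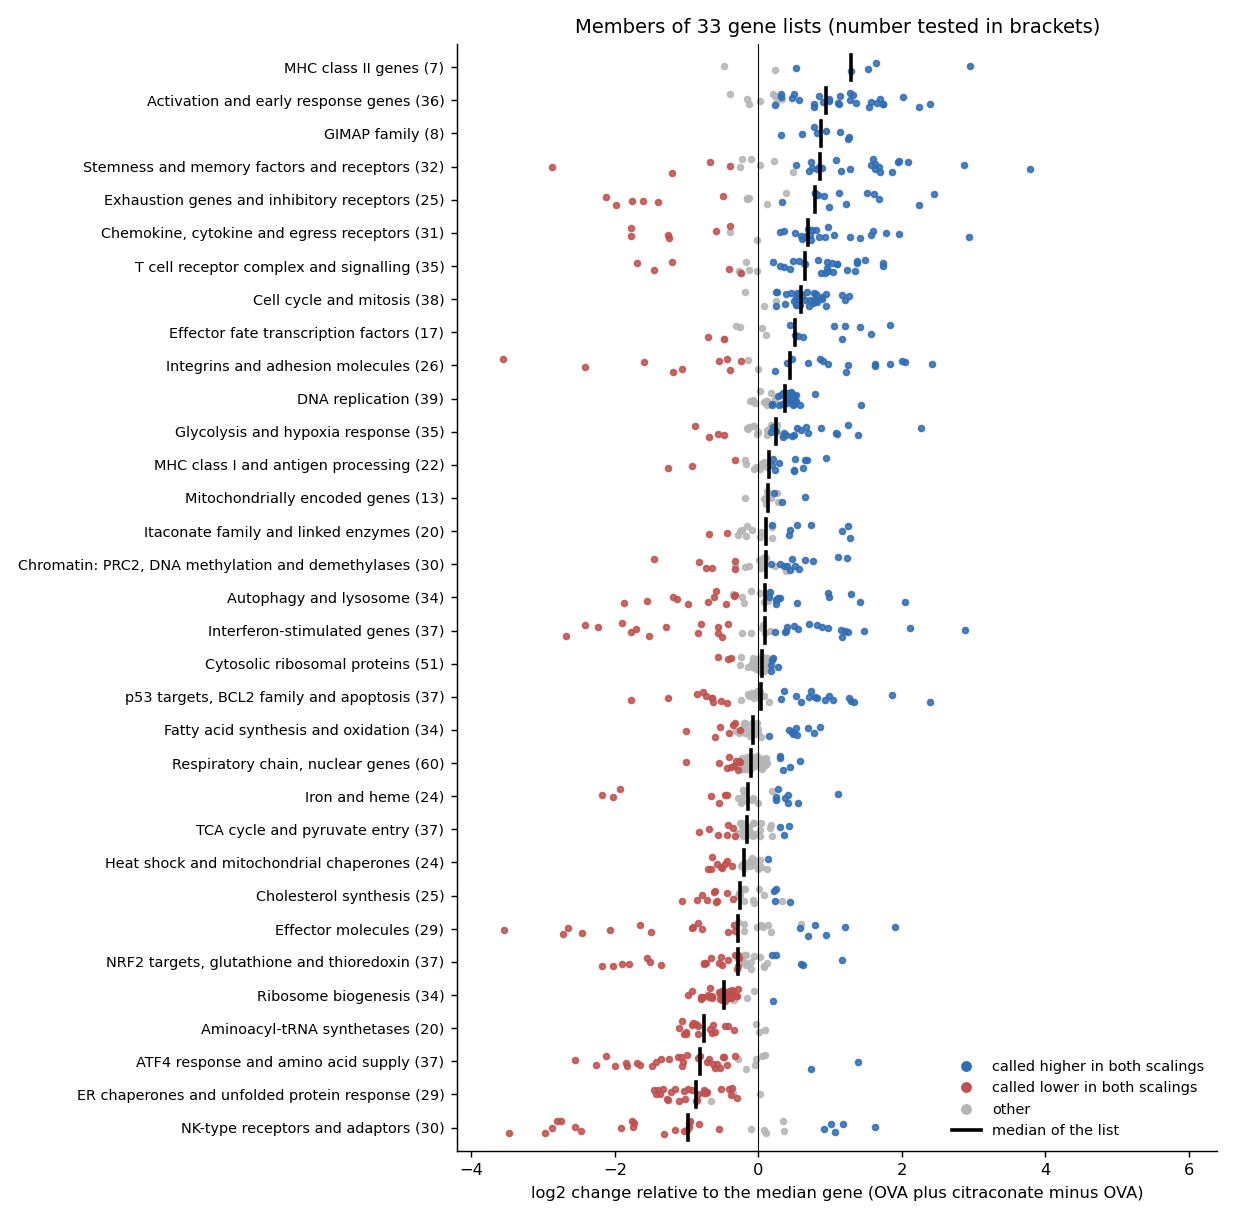
Log2 change relative to the median gene of each tested member of the 33 gene lists, ordered by the median of the list (black bar); blue members were called higher and red members lower in both scalings. Lists at the top (MHC class II, early response, GIMAP, stemness) lie mostly to the right of 0 and those at the bottom (NK-type receptors, ER chaperones, ATF4, tRNA synthetases) mostly to the left.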

How the data were processed

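Total RNA of 9 libraries was sequenced on an Illumina instrument, per the labels' protocols. The submitters' processing notes name Salmon, Trim Galore 0.5.0 and, as genome build, GRCm39, and no source used here gives the annotation. The authors deposited TPM per gene symbol. Although the table's name says FPKM, the columns share the fixed total that TPM have. Reads were worked back from it by taking the length of a gene as the same in all libraries. They were whole for all 16734 genes above 0 in at least 2 libraries (tolerance 1e-04 reads or 3e-08 of the count). These reads gave the depth and 1 alternative fit. Whether the Salmon of the notes was the counter behind the deposited table is not known. The edgeR count test was not run.

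Values were changed to log2(TPM + 1) with a pseudocount of 1, and all 9 libraries were fitted with limma 3.58.1 in R 4.3.3 (lmFit, eBayes with trend, group as the only term). Tested genes averaged 1 TPM or more in OVA or in OVA plus citraconate, 11590 in all, with two-sided p-values adjusted by the Benjamini-Hochberg method; a call is an adjusted p under 0.05. The steps were tested on simulated data. Genes were followed under 18 other settings, 1 of them added after seeing the data. No test was made over a gene list.

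Genes named had to be called the same way in both scalings, with groups that did not overlap and at least 5 TPM in the higher group: the 15 largest changes each way, the 8 largest in TPM each way, those crossing from under 1 to at least 5 TPM, up to 6 per list, and a fixed panel whatever its values; some are left out for room. Predicted genes, pseudogenes and receptor or immunoglobulin segments were passed over. Mcpt8, Cma1, Atf4, Ddit3, Asns and Vldlr, the low markers of other cells and the genes of the closing section were picked with their values in view. The compared groups and the lists were chosen with earlier results of these data known. Promoter sequences are from RefSeq windows on GRCm38.p6, an older build than the one in the notes, and were used for letters only.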

Additional observations from a re-analysis of the deposited data

How the results depend on the processing

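Counts of called genes stayed within 1.5 times of 4469 higher and 2541 lower under all 18 settings tried, but their split moved with scaling. Higher genes made up 63.8% of calls without scaling and 49.9% after median-of-ratios scaling (3504 higher, 3516 lower). Quantile normalization gave 3516 and 3559, and leaving out granzyme genes 3875 and 3038. Leaving out mitochondrially encoded genes gave 4812 and 2334, and the recovered reads with voom weights 4313 and 2730. A pseudocount of 0.1 gave 4448 and 2506, and one of 5 gave 4438 and 2545. Without a filter on low values the counts were 4648 and 2639, with a filter at 5 TPM 3708 and 2189, and with the 6 libraries alone 4217 and 2404. Leaving out 1 library gave 3949 to 4465 higher and 2206 to 2430 lower. Leaving out replicate 2 of both groups, chosen after seeing the data, gave 4128 and 2240.

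The labels do not say that replicate numbers pair the libraries, so the main fit took them as unpaired. Deviations of same-numbered libraries correlated at 0.041, 0.317 and 0.156, and those of differently numbered libraries at -0.272 to 0.18. Whether the libraries were paired cannot be told from these values. With the replicate block the counts were 4423 higher and 2527 lower. Not every library correlated best with its own number. Among genes followed, the block ended the call of Pdcd1 (adjusted p = 0.0515) and brought one for Prdm1 (adjusted p = 0.0482).

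Of 198 genes followed, 189 kept direction and call under every setting that tested them. Among those that did not, the unscaled log2 change of Gzmb ran from -0.248 (without replicate 2 of both groups) to 0.00306 (without citraconate replicate 1) as libraries were left out. That of Myb, not called in any setting, was -0.0971 with scaling, -0.0699 with quantile normalization and -0.0452 without granzyme genes, and ran from -0.0718 (without citraconate replicate 3) to 0.192 (without replicate 2 of both groups) as libraries were left out. The cause was not tested. Of 38 lists, 34 kept the sign of their median. The others were effector molecules (-0.38 to 0.0020), mitochondrially encoded genes (-0.078 to 0.36), p53 and apoptosis genes (-0.021 to 0.12) and CD4 or regulatory T cell markers (-0.24 to 0.097). Leaving out granzyme genes removed 9 of the 29 tested effector molecules themselves, and 7 of the remaining 20 fell in place of 14 of 29. Depth limits genes near 1 TPM, whose changes the added 1 TPM compresses.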

Other observations

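Genes that share a symbol stem and a number were also counted, after their values had been seen. Counts by stem are of calls in both scalings, which took in 30.2% (higher) and 21.9% (lower) of all genes tested. There were 328 such stems with at least 5 tested genes, and in 2 of them every tested gene was called the same way in both scalings. In 1 of these, the Mgat family of enzymes that branch N-linked glycans, all 6 tested genes fell. Mgat5, which adds the branch bound by galectins, stood at 43.5, 55 and 40.1 TPM with OVA and at 19.5, 21.5 and 18.6 TPM with citraconate (log2 change -1.29, adjusted p = 3.08e-05), and the groups did not overlap. Mgat3, Mgat4a and Mgat2 fell from 30.3 ± 6.61 to 11.7 ± 2.01 TPM (-1.42), from 18.4 ± 2.63 to 7.11 ± 1.69 TPM (-1.39) and from 166 ± 17.3 to 96.8 ± 4.31 TPM (-0.89). Of 10 annexin genes, whose proteins bind membranes with calcium, 8 fell, among them Anxa1 from 102 ± 5.46 to 41 ± 11 TPM (-1.44) and Anxa2 from 666 ± 51.7 to 502 ± 24.7 TPM (-0.53). The signal recognition particle, which brings secretory proteins to the endoplasmic reticulum, had 6 of 7 genes lower, with Srp68 from 139 ± 13.8 to 96.7 ± 2.35 TPM (-0.64).

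Other stems moved up. TNF ligands had 6 of 7 tested genes higher, including Tnfsf8, the CD30 ligand, at 7.36, 3.53 and 17.1 TPM with OVA and at 39.3, 31 and 38.7 TPM with citraconate (log2 change 1.95, adjusted p = 0.00104) and Tnfsf11, the RANK ligand, from 11 ± 5.55 to 35 ± 1.53 TPM (1.56). Of the STAT factors 6 of 7 were higher, with Stat3 from 90.2 ± 12 to 156 ± 3.12 TPM (0.67), and Stat2 fell from 8.12 ± 0.587 to 6.4 ± 0.512 TPM (-0.42), a call lost without OVA replicate 3 or citraconate replicate 1 (adjusted p = 0.0529 and 0.0636). Of 12 tested genes with the Irf stem, which take in genes of IRF2-binding proteins, 9 were higher and 2 lower. Irf1 stood at 22.1, 19.4 and 23.3 TPM with OVA and at 70.3, 53.5 and 80.9 TPM with citraconate (log2 change 1.48, adjusted p = 1.92e-05), while Irf8, a factor shared by effector T cells and myeloid cells, stood at 446, 585 and 431 TPM with OVA and at 189, 286 and 207 TPM with citraconate (log2 change -1.23, adjusted p = 2.43e-04), and the groups did not overlap for either. Intraflagellar transport genes, which build cilia and also act at the immune synapse, had 10 of 13 higher, with a median log2 change of only 0.235. The largest changes were those of Ift80, from 3.59 ± 0.758 to 10.5 ± 1.23 TPM (1.21), and Ift140, from 6.38 ± 1.31 to 16.4 ± 0.709 TPM (1.12). Beta-tubulin genes differed among themselves: Tubb5 rose from 845 ± 105 to 1369 ± 146 TPM (0.57) and Tubb2a from 22.8 ± 5.31 to 75.6 ± 9.21 TPM (1.59), whereas Tubb6 fell from 319 ± 10.4 to 232 ± 0.192 TPM (-0.58).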
